A study of Mus musculus with 20 samples.

Results

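The genes described here are 10 transcripts of the amino acid branch of the integrated stress response, chosen by symbol from the 17101 genes of the deposited table: *Atf4*, *Atf5*, *Ddit3*, *Trib3*, *Chac1*, *Sesn2*, *Asns*, *Psat1*, *Phgdh* and *Slc7a11*. All 10 are in the table. RNA-Seq was carried out on 20 libraries of donor T cells sorted from the spleen of mice 10 days after an allogeneic transplant of marrow and T cells (allo-BMT), with 4 libraries in each of 5 groups. Donors were either *Dnmt3a*-KO mice, whose *Dnmt3a* is flanked by loxP sites and deleted by Cre under the *Cd4* promoter, or WT littermates. Donors were 6 to 12 weeks old and the irradiated F1 recipients 8 to 12 weeks old. KO samples 1 to 4 each gave CD4+, CD8+ and CD4+CD8+ double-positive (DP) T cells. WT samples 2, 3, 5 and 6 each gave CD4+ and CD8+ T cells, and their DP cells were not analysed here. Because *Cd4*-Cre acts in the thymus, the allele is lost in both mature lineages, and every group shares the transplant and the sort.

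Cells that lack amino acids, carry unfolded protein in the endoplasmic reticulum, sense viral RNA or lack heme activate the kinases GCN2, PERK, PKR and HRI. These phosphorylate the translation factor eIF2α, which slows protein synthesis in general while upstream reading frames in the *Atf4* mRNA let more ATF4 protein be made. ATF4 then drives genes for amino acid synthesis, amino acid import and tRNA charging, and with longer stress the genes of cell death. *Atf4* mRNA is therefore not a measure of ATF4 protein, and its target transcripts are commonly read beside it. In activated T cells ATF4 is known for supporting amino acid supply and one-carbon metabolism during proliferation.

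ATF4 binds DNA as a dimer with C/EBP proteins at composite sites whose core is commonly written TGATGNAA, where N is any base. The motif was searched on both strands in the 300 bases around each RefSeq start site (250 before and 50 after, GRCm38.p6). It occurred in 4 of the 10 genes, *Trib3*, *Asns*, *Chac1* and *Slc7a11*, against 4.51% of all 27025 genes with a window, and in 4 of their 12 windows against 3.97% of all 32851. The matches upstream of the start are shown because they place the sequence on which this response is classically studied beside the expression values. They are printed in the direction of the gene, with the match in capitals, and those whose match begins with TT lie on the opposite strand.
*Asns*, chr6:7693214-7693243, minus strand, match from base -23 to -16 of the start: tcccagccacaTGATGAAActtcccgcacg
*Chac1*, chr2:119351038-119351067, plus strand, match from base -193 to -186: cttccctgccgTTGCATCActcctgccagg
*Slc7a11*, chr3:50443661-50443690, minus strand, match from base -66 to -59: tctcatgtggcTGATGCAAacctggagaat
*Slc7a11*, chr3:50443642-50443671, minus strand, match from base -47 to -40: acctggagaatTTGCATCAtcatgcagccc
The *Slc7a11* matches lie close together and face each other, and their printed windows overlap. The *Trib3* match begins 14 bases after the start site, on the opposite strand. A match describes letters only, and the genes without one in these windows can hold sites elsewhere.

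Between 37547651 and 46966318 reads per library fell on genes. DP cells of KO sample 3 had reads on 11783 genes, and the other libraries on 13203 to 14677. *Dnmt3a* itself was at 1658, 1628, 1640 and 1385 normalized counts in KO CD4+ cells against 4906, 4690, 4839 and 5171 in WT CD4+ cells, and the same separation held in CD8+ cells (KO 1287 to 2007, WT 3542 to 3812). Its log2 difference was -1.64 (SE 0.08, adjusted p = 1.26e-05) in CD4+ and -1.20 (SE 0.12, adjusted p = 0.000654) in CD8+ cells. *Cd4* was at 44800 to 74390 in the CD4+ and at 8758 to 15350 in the DP libraries, with at most 458 in the CD8+ libraries. *Cd8a* was at 41590 or more in the CD8+ and DP libraries, and at 586 or less in the CD4+ libraries except for 3771 in KO sample 1. Of 7 neutrophil markers, summed counts were 2736 to 7334 in KO sample 3, 2.94 to 539 in the other KO samples and 1822 to 4384 in WT libraries. Summed counts of 3 dendritic cell markers were 173.5 to 347.5 in KO and 597.3 to 777.3 in WT libraries, and all 3 were called lower in KO in both lineages. Like *Atf4* they separated the genotypes without overlap in CD4+ and CD8+ cells, and their part in the results was not tested. *Cd79b*, a B cell receptor component, was at 581 to 2245 in KO and 40.1 to 245 in WT libraries, while *Ms4a1*, a defining B cell marker, reached at most 4.39 counts. *Cd79a* was at 48.76 to 90.05 in KO and 1.94 to 13.37 in WT CD4+ libraries, and overlapped in CD8+ cells. Of 4 B and plasma cell markers tested, 2 were called higher and 1 lower in KO CD4+ cells. In CD8+ cells 1 was called higher and 0 lower. Of all genes 18.4% were called in CD4+ and 25.2% in CD8+ cells. In bulk libraries, fewer cells of a kind and less RNA per cell cannot be told apart.

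Each comparison was tested with limma on log2(normalized count + 1) over all genes with a mean of at least 10, a log2 difference is on that scale, and adjusted p values below 0.05 were called. Whether numbers 1 to 6 name separate mice is not stated in the labels. The authors describe the columns of their expression heatmap as biological replicates, and the p values measure the spread between these libraries. KO and WT cells were compared to describe how the transcripts of donor T cells without *Dnmt3a* differ. The paper reports more severe graft-versus-host disease in recipients of KO than of WT donors. The design does not separate the state of the host from genotype, and its part in the results was not tested. In CD4+ cells 2 of the 10 genes were called, *Atf4* lower and *Trib3* higher in KO, where 18.4% of all 12391 genes tested were called. In CD8+ cells 1 of 9 was called, *Atf4* lower in KO, against 25.2% of 12383 genes, and *Chac1* was too low to be tested. These shares are close to or below the background of a comparison in which many genes differ. The median log2 difference of the 10 genes was -0.12 in CD4+ and -0.11 in CD8+ cells, where that of all genes was -0.05 and -0.04.

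**Figure D1:**
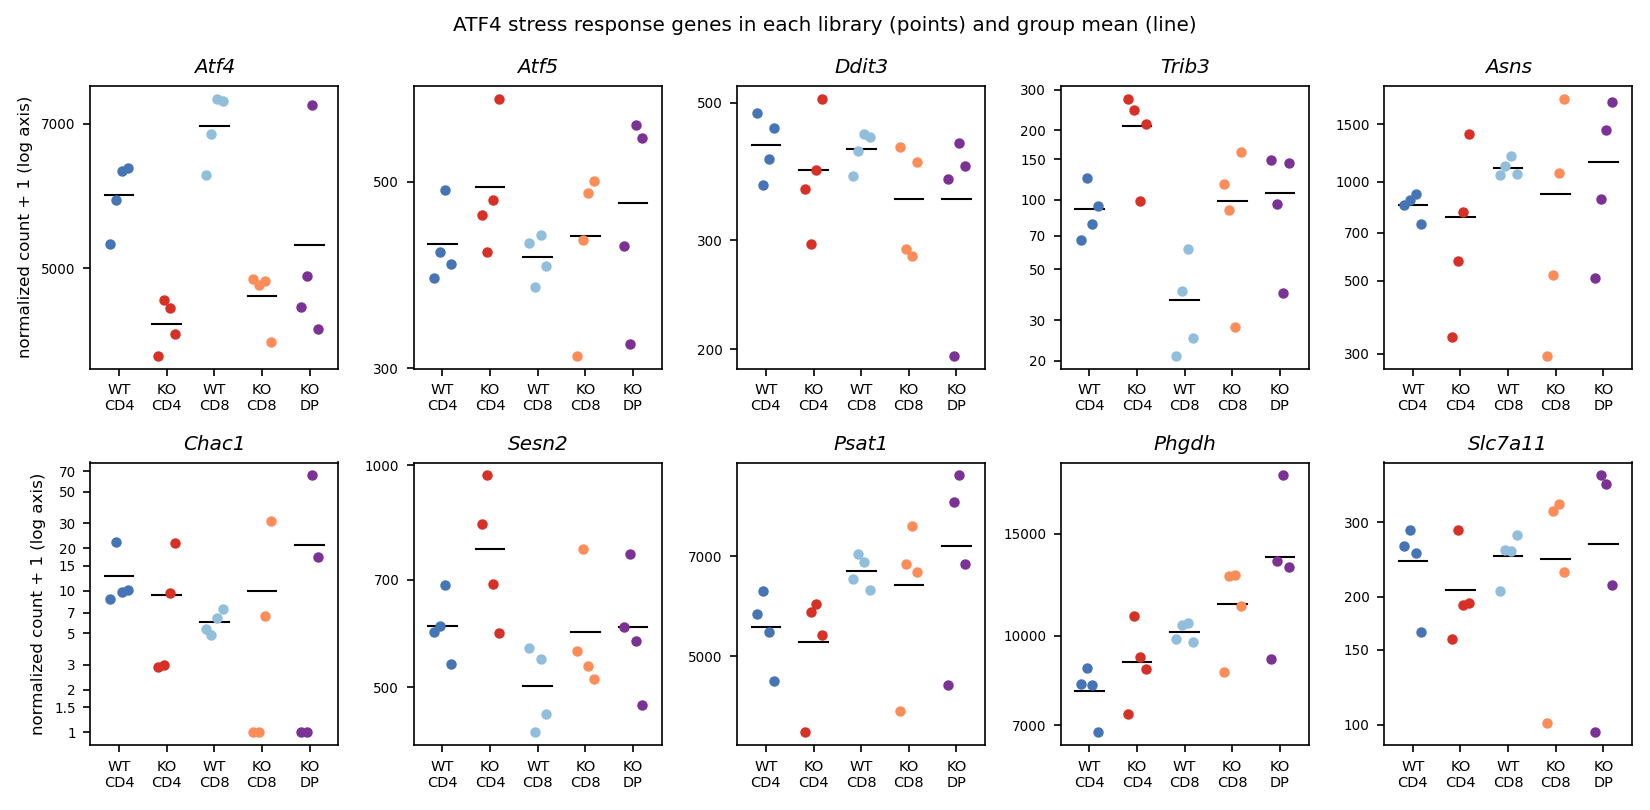
Normalized count plus 1 (log axis) of each gene in the 20 libraries, 4 per group on the horizontal axis, with a line at the group mean. All 8 KO CD4+ and CD8+ libraries lie below the 8 WT libraries for Atf4, while Asns spreads widely among KO libraries (294 to 1791) around narrow WT groups (745 to 1196).

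*Atf4* (chr15:80255184-80257545, plus strand, GRCm38.p6), the transcription factor that gives the response its name, was lower in KO cells of both lineages. In KO CD4+ cells its normalized counts were 4080, 4649, 4564 and 4286, and in WT CD4+ cells 5293, 5854, 6268 and 6306. The groups did not overlap, and the log2 difference was -0.43 (SE 0.08, adjusted p = 0.00895), which is 0.742 of the WT level. In CD8+ cells the counts were 4882, 4805, 4851 and 4214 in KO and 6208, 6827, 7415 and 7376 in WT. Again no KO library reached a WT library, with a log2 difference of -0.57 (SE 0.08, adjusted p = 0.00242). The interval of the difference between lineages included 0 (log2 0.14, 95% interval -0.10 to 0.37, adjusted p = 1 for the interaction).

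The order of the group means was KO CD4+ (4395 ± 261, SD, n = 4), KO CD8+ (4688 ± 318), KO DP (5281 ± 1370), WT CD4+ (5930 ± 472) and WT CD8+ (6956 ± 567). KO DP cells were at 4566, 4914, 7306 and 4338, so that samples 1 and 4 lay among the other KO libraries, sample 2 slightly above the highest of them (4882), and sample 3, with few detected genes, at the WT level. Neighbouring KO groups in this order were not called different, and KO DP was not tested against WT. The call of *Atf4* in both lineages held with any 1 library left out and in 9 of 10 other settings, the exception being a block on the sample numbers 2 and 3 that KO and WT share.

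*Atf5*, a close relative that is regulated by similar upstream reading frames and acts on the mitochondrial stress response, was not called. Its counts were 455, 411, 475 and 626 in KO CD4+ and 383, 412, 488 and 398 in WT CD4+ cells, so the groups overlapped. The log2 difference was 0.21 (95% interval -0.14 to 0.57, adjusted p = 0.358) in CD4+ and 0.06 (-0.32 to 0.44, adjusted p = 0.813) in CD8+ cells, where KO ranged from 309 to 499 and WT from 373 to 430. *Atf5* overlaps *Nup62* and *Il4i1b* on the opposite strand, and counting took the strand into account.

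*Ddit3* encodes CHOP, the factor through which prolonged stress is tied to cell death. It stood at 361, 295, 389 and 506 in KO CD4+ and 480, 367, 404 and 455 in WT CD4+ cells. KO CD8+ cells had 423, 289, 282 and 400 and WT CD8+ cells 380, 416, 445 and 439. Groups overlapped in both lineages, with log2 differences of -0.16 (95% interval -0.56 to 0.25, adjusted p = 0.556) and -0.29 (-0.67 to 0.09, adjusted p = 0.229). *Ddit3* shares its locus with *Mars1* and *Mbd6* on the opposite strand.

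*Trib3*, a pseudokinase induced by ATF4 and CHOP that feeds back on both and binds AKT, was the 1 gene called higher in KO. In KO CD4+ cells it was at 273, 245, 97.4 and 213, and in WT CD4+ cells at 65.7, 124, 77.7 and 92.8. Only sample 3 of the KO group fell within the WT range, and the log2 difference was 1.13 (SE 0.35, adjusted p = 0.0472), just past the threshold. The exact permutation p was 0.0571. The call held in 5 of 10 other settings, DESeq2 among them, and with 1 of 8 libraries left out, KO sample 3 (adjusted p = 0.00741). In CD8+ cells KO stood at 116, 89.6, 26.9 and 161 and WT at 20.1, 39.3, 60.2 and 24.1. There the log2 difference was 1.30 (95% interval 0.02 to 2.58, adjusted p = 0.121). Without sample 3 it was 1.82 and was called (adjusted p = 0.0131). KO sample 3, lowest for *Trib3* in all 3 KO subsets, is also the KO sample whose neutrophil markers lay in or above the WT range. The part of this in the result was not tested.

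*Chac1*, which breaks down glutathione and is an early readout of ATF4 and CHOP activity, was near the limit of detection. KO CD4+ libraries had 1.91, 1.96, 8.59 and 20.9 counts and WT CD4+ libraries 7.8, 21.1, 8.74 and 9.19. KO samples 1 and 2 had 0 counts in CD8+ and DP cells, where samples 3 and 4 had 5.61 and 30.3, and 64.5 and 16.3. WT CD8+ libraries lay between 3.84 and 6.49. The difference in CD4+ cells, log2 -0.85 (95% interval -2.62 to 0.92, adjusted p = 0.462), leaves changes in either direction possible at this depth.

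*Sesn2* encodes Sestrin 2, a leucine sensor upstream of mTORC1 that ATF4 and p53 both induce. In CD4+ cells KO libraries were at 832, 968, 688 and 591 and WT libraries at 593, 604, 687 and 538. CD8+ cells had 559, 768, 534 and 512 in KO and 564, 434, 545 and 460 in WT. Log2 differences of 0.33 (95% interval -0.03 to 0.69, adjusted p = 0.173) and 0.23 (-0.13 to 0.59, adjusted p = 0.306) did not pass, and groups overlapped.

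**Figure D2:**
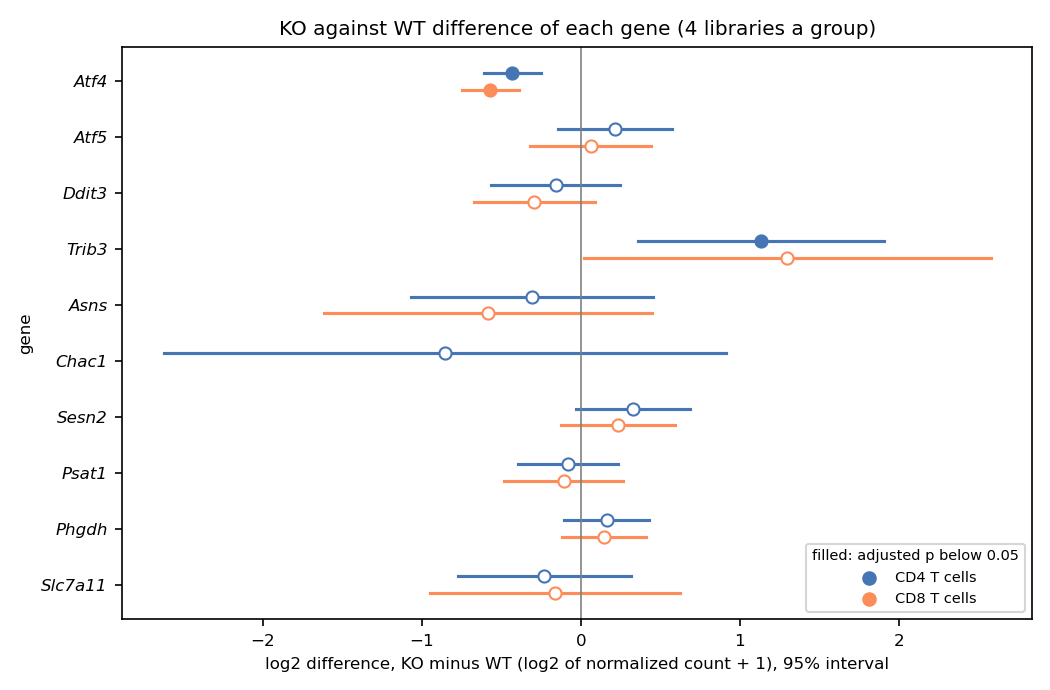
Log2 difference of KO minus WT with its 95% interval for each gene in CD4+ (blue) and CD8+ (orange) T cells, 4 libraries per group, filled where the adjusted p is below 0.05. Only Atf4 in both lineages and Trib3 in CD4+ cells are filled, and the interval of Asns spans from -1.62 to 0.45 in CD8+ cells.

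*Asns* encodes asparagine synthetase, the classical ATF4 target. It was not called between genotypes, and its KO libraries were far more spread than its WT libraries. KO CD4+ libraries were at 337, 571, 810 and 1399, against 850, 881, 921 and 745 in WT. KO CD8+ libraries were at 294, 520, 1062 and 1791, against 1049, 1116, 1196 and 1060 in WT. KO values lay on both sides of the WT values in each lineage. The log2 difference was -0.31 (95% interval -1.07 to 0.45, adjusted p = 0.535) in CD4+ and -0.59 (-1.62 to 0.45, adjusted p = 0.369) in CD8+ cells. These values rest on single KO samples. Without sample 1 the difference was 0.03 in CD4+ and -0.15 in CD8+ cells, and without sample 4 it was -0.65 (adjusted p = 0.0998) and -1.01 (adjusted p = 0.0802).

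The KO samples kept 1 order for *Asns* across subsets. KO DP cells had 509, 886, 1442 and 1751 in samples 1 to 4, so samples ranked 1, 2, 3, 4 from low to high in all 3 subsets. Its SD on the log2 scale was 0.86, 1.14 and 0.80 in KO CD4+, CD8+ and DP cells, where the median of the 3386 genes of like level was 0.21, 0.23 and 0.33. In WT CD4+ and CD8+ cells the SD was 0.13 and 0.09, against medians of 0.12 and 0.09. *Chac1* was likewise higher in samples 3 and 4 than in samples 1 and 2 in all 3 KO subsets, at counts of 0 to 64.5.

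*Psat1* and *Phgdh*, the enzymes that carry out the early steps of serine synthesis from glycolysis, ranked the samples otherwise. *Psat1* in samples 1 to 4 was at 3865, 5802, 5966 and 5366 in KO CD4+, 4157, 6825, 7768 and 6642 in KO CD8+ and 4534, 8409, 9202 and 6816 in KO DP cells. Sample 1 was lowest and sample 3 highest in every subset. *Phgdh* was at 7330, 10789, 9195 and 8742 in KO CD4+, 8668, 12698, 12750 and 11250 in KO CD8+ and 9120, 13442, 18917 and 13157 in KO DP cells, again with sample 1 lowest throughout. The summed counts of 10 mitosis genes were lowest in sample 1 as well (40850, 42340 and 48680 in CD4+, CD8+ and DP cells, against 51760 to 127600 in the other KO libraries), and their part in these values was not tested.

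Against WT neither enzyme was called. WT CD4+ cells had 5769, 6236, 5418 and 4599 *Psat1* counts and 8238, 8796, 8223 and 6809 *Phgdh* counts. WT CD8+ cells had 6482, 7059, 6876 and 6254 *Psat1* counts and 9849, 10446, 10525 and 9764 *Phgdh* counts. KO and WT ranges overlapped throughout. The *Psat1* differences were -0.08 (95% interval -0.39 to 0.23, adjusted p = 0.704) and -0.11 (-0.48 to 0.27, adjusted p = 0.662) in CD4+ and CD8+ cells. For *Phgdh* they were 0.16 (-0.10 to 0.43, adjusted p = 0.351) and 0.14 (-0.12 to 0.41, adjusted p = 0.383).

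*Slc7a11*, the cystine importer that supplies glutathione synthesis, also had its lowest KO values in sample 1, at 158, 99.6 and 94.9 in CD4+, CD8+ and DP cells. The other samples were at 190 to 286, 228 to 330 and 212 to 385. WT CD4+ libraries lay between 164 and 286 and WT CD8+ libraries between 206 and 279, so the groups overlapped. Log2 differences were -0.23 (95% interval -0.77 to 0.31, adjusted p = 0.517) and -0.16 (-0.95 to 0.63, adjusted p = 0.758).

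*Sesn2* had its own order of samples, 4, 3, 1, 2 from low to high, in all 3 KO subsets, including DP cells at 602, 756, 577 and 472. Sample 4 thus held the lowest *Sesn2* and the highest *Asns* of the KO samples in each subset. The subsets are paired by sample number, so these orders are 1 set of 4 samples seen 3 times.

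**Figure D3:**
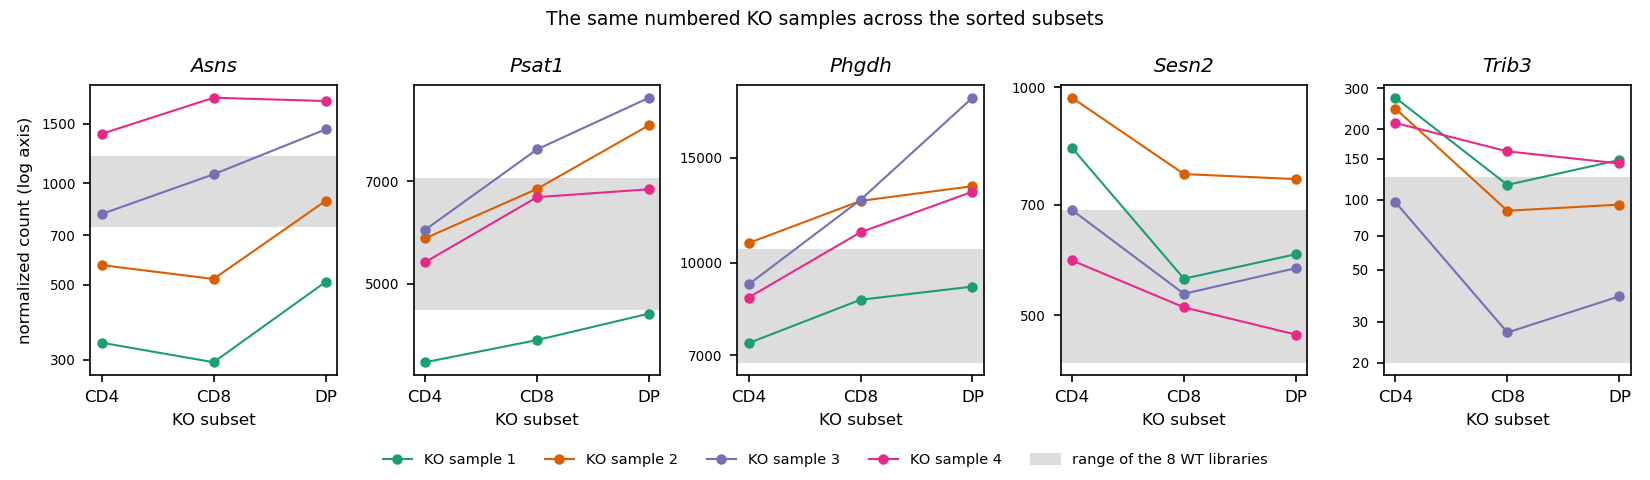
Normalized count (log axis) of 5 genes in the 3 KO subsets on the horizontal axis, with a line for each KO sample and a grey band for the range of the 8 WT libraries. The samples keep the same order in all 3 subsets for Asns, Psat1 and Sesn2, with Asns of sample 4 above and of sample 1 below the WT band in each.

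No gene of the 10 was called for a genotype effect that differed between lineages (0 of 9 tested, limma, where 0.0161% of 12446 genes were called). No member had an unadjusted p below 0.05 there, and edgeR and DESeq2 also called 0. The differences between the CD4+ and CD8+ effects lay between -0.17 for *Trib3* (95% interval -1.65 to 1.32) and 0.28 for *Asns* (-1.06 to 1.62). These intervals come from the fit without pairing, include the spread between samples, and leave room for sizeable differences. With the number as a replicate block 0 members were called, and 173 of all 12446 genes were. In that limma fit the adjusted p was 0.394 for *Atf4* and 0.423 for *Asns*.

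Among the genes around ATF4, the eIF2α kinases and phosphatases gave 1 called higher and 1 called lower of 8 tested in each lineage, near the 18.4% and 25.2% called over all genes in CD4+ and CD8+ cells. *Ppp1r15a*, whose product GADD34 brings a phosphatase to eIF2α and ends the response, was at 1175, 838, 1406 and 1223 in KO CD4+ and 3304, 3868, 6155 and 7206 in WT CD4+ cells. It was lower by log2 -2.10 (SE 0.24, adjusted p = 0.00165) in CD4+ and -2.17 (SE 0.26, adjusted p = 0.00143) in CD8+ KO cells, with no overlap. *Eif2ak1*, the kinase HRI, was higher in KO by 0.31 (SE 0.09, adjusted p = 0.0317) and 0.44 (SE 0.07, adjusted p = 0.00334). The CD4+ call was lost in 3 of 10 other settings and with 4 of 8 libraries left out. Genes of GCN2, PERK and PKR were not called.

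Among other transcription factors and regulators of the response, 1 was called higher and 3 lower of 9 in CD4+ cells, and 1 higher and 2 lower of 8 in CD8+ cells, where 18.4% and 25.2% of all genes were called. *Ddit4*, the stress-induced mTORC1 inhibitor REDD1, rose in KO CD4+ cells to 27112, 15913, 25393 and 26974 from 11430, 14921, 11605 and 10528 in WT (log2 0.96, SE 0.17, adjusted p = 0.00792). In CD8+ cells it was higher by 1.06 (SE 0.16, adjusted p = 0.00284), with no overlap in either lineage. *Atf3*, a repressor downstream of ATF4 that many acute stimuli also induce, was at 0 to 21.6 counts in KO CD4+ and CD8+ libraries against 24.8 to 54.6 in WT. Its adjusted p was 0.0432 in CD4+ and 0.0208 in CD8+ cells, and the call was lost in 5 of 9 and 3 of 9 other settings and with 5 of 8 and 4 of 8 libraries left out. *Stc2*, a secreted glycoprotein, was lower in KO CD4+ cells (log2 -1.39, SE 0.43, adjusted p = 0.0492), as was *Nfe2l1* (-0.24, SE 0.07, adjusted p = 0.0447), a regulator of proteasome genes named after its value was seen. *Stc2* counts were low there, 11.8 to 31.5 in KO and 33.4 to 60.2 in WT. Its call was lost in 5 of 9 other settings and with 7 of 8 libraries left out. *Cebpb*, a dimer partner of ATF4, was lower in KO CD8+ cells (log2 -0.85, SE 0.16, adjusted p = 0.007).

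*Ppp1r15a* and *Atf3* are also induced within minutes by mitogens and heat. Of 12 immediate early and heat shock genes 9 were called lower in KO in each lineage. Of all genes tested 18.4% of 12391 were called in CD4+ and 25.2% of 12383 in CD8+ cells, 1210 and 1552 of them lower. Summed counts were 23370 to 36490 in KO and 46150 to 82760 in WT CD4+ libraries. In CD8+ libraries they were 16240 to 21860 in KO and 31010 to 50380 in WT, so neither lineage overlapped. In CD4+ cells the log2 difference was -3.01 (SE 0.36, adjusted p = 0.00182) for *Fos* and -4.30 (SE 0.44, adjusted p = 0.000743) for *Fosb*, early transcription factors of the AP-1 family. The heat shock genes *Hspa1a* and *Hspa1b*, near-identical copies whose reads can be split between them, were at 13.2 to 82.1 and 14.3 to 38.2 in KO CD4+ cells against 2221 to 10881 and 1297 to 6582 in WT. In WT CD4+ samples 2, 3, 5 and 6 *Hspa1a* was at 2221, 4506, 7352 and 10881, the order in which *Atf4* rose there. In WT CD8+ cells *Atf4* kept that order except between samples 5 and 6 (7415 and 7376), and KO CD4+ and CD8+ libraries did not share an order for these genes. The part of the early and heat shock genes in *Ppp1r15a*, *Atf3* and *Atf4* was not tested.

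The enzymes that charge tRNAs, many of them known ATF4 targets, were called higher for 4 of 20 in CD4+ and 3 of 20 in CD8+ KO cells, and lower for none. Over all genes 18.4% of 12391 were called in CD4+ and 25.2% of 12383 in CD8+ cells, of which 1064 and 1566 genes were higher. Counting calls in both directions, the list was thus near the share of all genes in CD4+ and below it in CD8+ cells. Higher calls alone were 4 of 20 against 1064 of 12391 in CD4+ and 3 of 20 against 1566 of 12383 in CD8+ cells. On that count the share of the list was the larger in both lineages, only slightly so in CD8+ cells. Both are descriptions without a test. *Sars*, which charges serine tRNA, was higher by 0.39 (SE 0.07, adjusted p = 0.00766) and 0.45 (SE 0.09, adjusted p = 0.00718). *Qars*, for glutamine, was higher by 0.39 (SE 0.07, adjusted p = 0.00639) and 0.37 (SE 0.07, adjusted p = 0.00771). *Vars* and *Wars* were called in CD4+ cells (0.34 and 0.32, adjusted p = 0.0255 and 0.0337), and lost their calls with 4 of 8 and 6 of 8 libraries left out. KO and WT libraries did not overlap for *Sars* and *Qars*. *Nars*, the third gene called in CD8+ cells (0.25, SE 0.07, adjusted p = 0.0339), is named after its value was seen. The list medians were 0.05 and 0.07, where those of all genes were -0.05 and -0.04. With each library left out in turn the counts were 2 to 4 in CD4+ and 2 to 7 in CD8+ cells.

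Of the amino acid transporters 0 of 9 were called in CD4+ cells by limma, edgeR and DESeq2, with 2 at an unadjusted p below 0.05. In CD8+ cells 1 of 9 was called, and up to 3 without KO CD8+ replicate 1 or 3. *Slc1a5*, a glutamine and neutral amino acid transporter, was at 9006, 6913, 9688 and 9737 in KO CD8+ and 14316, 14195, 15654 and 15545 in WT CD8+ cells (log2 -0.77, SE 0.11, adjusted p = 0.00242). Of the serine, glycine, proline and mitochondrial folate enzymes 0 of 10 were called in either lineage by limma, with 2 and 1 at an unadjusted p below 0.05. edgeR called 0 in both, and DESeq2 called 1 in CD4+ and 0 in CD8+ cells.

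**Figure D4:**
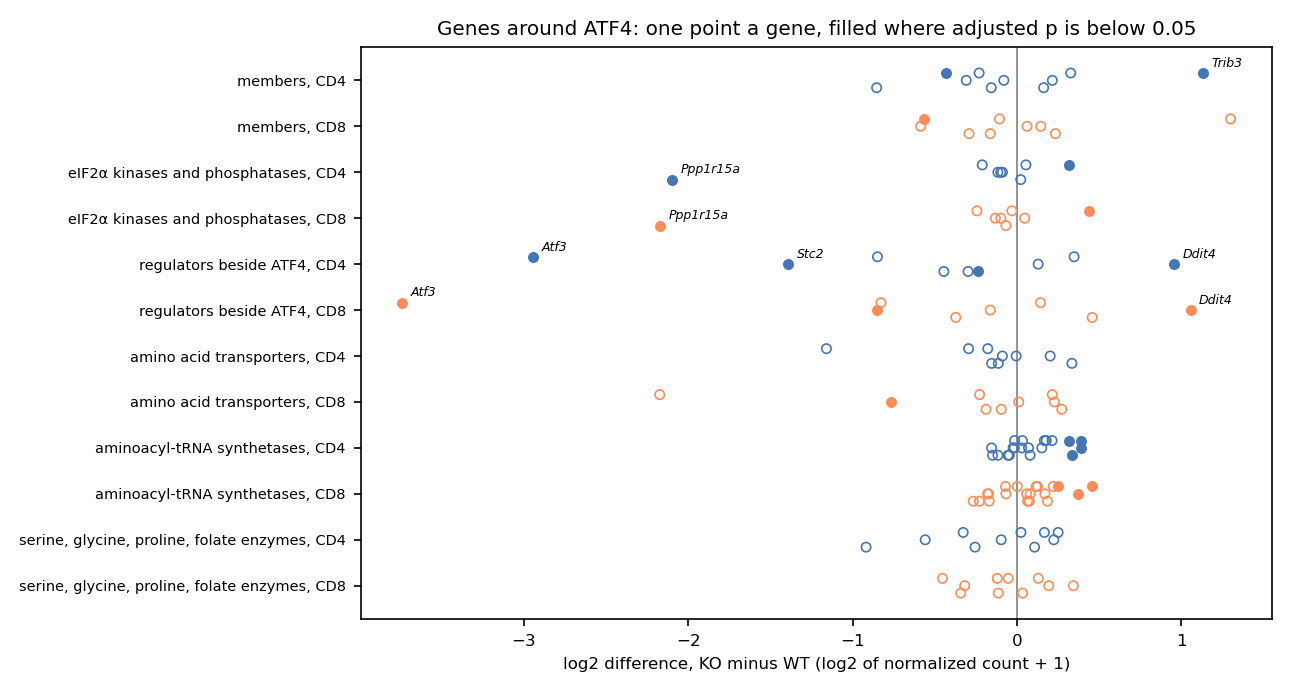
Log2 difference of KO minus WT for each tested gene of the 10 genes described and of 5 lists around ATF4, a row per list and lineage (CD4+ blue, CD8+ orange), filled where the adjusted p is below 0.05. Ppp1r15a and Atf3 lie below -2 and Ddit4 near 1 in both lineages, while most points lie near 0.

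Other stress programs were listed beside them, in comparisons where 18.4% of all genes were called in CD4+ and 25.2% in CD8+ cells. Of 16 genes of the ATF6 and XBP1 arms of the unfolded protein response, 1 was called higher (*Atf6*, 0.37, SE 0.10, adjusted p = 0.0276) and 2 lower in KO CD4+ cells, the chaperones *Hsp90b1* (-0.56, SE 0.16, adjusted p = 0.0411) and *Hspa5* (-0.59, SE 0.18, adjusted p = 0.0499), the latter named after its value was seen. In CD8+ cells 1 was called, *Dnajb9* (-0.32, SE 0.10, adjusted p = 0.0485). The calls of *Atf6*, *Hsp90b1* and *Dnajb9* were lost in 4, 4 and 5 of 10 other settings. With each library left out in turn they were lost 4, 6 and 6 times of 8. The list medians were -0.38 and -0.36, where those of all genes were -0.05 and -0.04. Of 10 NRF2 targets, which share *Slc7a11* as a target, 2 were called higher and 1 lower in CD4+ cells. These were *Gsr* (0.61, SE 0.10, adjusted p = 0.0059), *Slc48a1* (0.86, SE 0.19, adjusted p = 0.0151) and *Hmox1* (-0.73, SE 0.19, adjusted p = 0.0303). In CD8+ cells *Slc48a1* was higher (0.79, SE 0.12, adjusted p = 0.00323) and *Osgin1* lower (-1.93, SE 0.52, adjusted p = 0.0249), and the count was 1 to 4 with a library left out. The call of *Hmox1* was lost in 3 of 10 other settings and with 4 of 8 libraries left out. That of *Osgin1* was lost in 2 of 10 and with 5 of 8. Of 10 p53 targets *Bbc3* was called higher in CD4+ cells (1.07, SE 0.34, adjusted p = 0.0496) and *Mdm2* lower in CD8+ cells (-0.26, SE 0.08, adjusted p = 0.0437), with overlapping libraries, and both are named after their values were seen. The count of 1 called p53 target changed in 7 of 10 other settings in each lineage. Mitosis genes gave 0 of 10 in both lineages by limma, edgeR and DESeq2, with 0 at an unadjusted p below 0.05, although 5 were called without KO CD4+ replicate 2 and 3 without KO CD8+ replicate 1.

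Levels were set beside each other between genes per kilobase of RefSeq exons. In WT CD8+ cells the mean normalized count per kilobase was 5423 for *Phgdh*, 4023 for *Atf4* and 2677 for *Psat1*. *Asns* (564), *Ddit3* (483), *Atf5* (233) and *Sesn2* (188) formed a middle range, and *Slc7a11* (27.0), *Trib3* (17.5) and *Chac1* (3.2) a low range. The serine synthesis enzymes were thus among the most abundant of the 10 on this scale. *Atf4* and *Psat1* were at 2542 and 2107 per kilobase in KO CD4+ cells, where the former had been 3430 in WT.

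The lineages were compared within each genotype, since CD4+ and CD8+ cells came from the same numbered samples. In WT cells 5 of 9 genes were called, where 44.5% of 12559 genes were. *Phgdh*, *Asns*, *Psat1* and *Atf4* were lower in CD4+ than in CD8+ cells by log2 -0.35 (SE 0.07, adjusted p = 0.00108), -0.38 (SE 0.08, adjusted p = 0.0019), -0.28 (SE 0.08, adjusted p = 0.0098) and -0.23 (SE 0.07, adjusted p = 0.0145), of which *Atf4* was not called without WT CD8+ replicate 6, *Atf4* and *Psat1* not without the trend, and none of the 5 genes in a joint fit of 20 libraries. *Trib3* was higher in CD4+ cells by 1.39 (SE 0.35, adjusted p = 0.00564). CD4+ and CD8+ libraries did not overlap for these genes except for *Atf4*, whose highest CD4+ library (6306) lay above the lowest CD8+ library (6208). Within each numbered WT sample *Atf4* was nevertheless lower in CD4+ cells in 4 of 4, by nearly the same amount (SD of the log2 difference 0.0088). WT libraries held 4750 to 8251 *Atf4* reads, at which counting noise alone exceeds that SD, so the closeness is not a measure of precision. With the number as a replicate block the adjusted p of *Atf4* was 0.000353. *Sesn2*, at 0.28 (adjusted p = 0.0604), was also called with the block (adjusted p = 0.0298).

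The serine, glycine, proline and folate enzymes followed in WT cells, with 6 of 10 lower and 1 higher in CD4+ cells. *Psph*, the last step of serine synthesis, and *Shmt2*, the mitochondrial enzyme that turns serine to glycine, are named after their values were seen. Their log2 differences were -0.44 (SE 0.06, adjusted p = 4.56e-05) and -0.62 (SE 0.07, adjusted p = 6.9e-06). *Gpt2*, which makes alanine or glutamate, was the 1 called higher (1.90, SE 0.47, adjusted p = 0.00489) and is also named after its value was seen. All 10 mitosis genes were lower in WT CD4+ cells too (summed counts 73410 to 91330 in CD4+ and 108400 to 126900 in CD8+ libraries). Of the tRNA synthetases 6 of 20 were called, all lower, which is below the 44.5% called over all genes in either direction. Lower calls alone were 2791 of all 12559 genes, a smaller share than 6 of 20. The part of mitosis in the enzyme values was not tested.

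In KO cells 0 of 9 genes were called between CD4+ and CD8+ cells, where 4.22% of 12189 genes were. None had an unadjusted p below 0.05 in limma, and edgeR and DESeq2 called 0. With the number as a replicate block, which takes out the spread between KO samples, 4 were called, and 2305 of all 12189 genes were. These were *Trib3* (1.22, adjusted p = 0.0125) and *Sesn2* (0.37, adjusted p = 0.0475), higher in CD4+ cells in 4 of 4 samples, and *Phgdh* (-0.33, adjusted p = 0.00582) and *Psat1* (-0.26, adjusted p = 0.0227), lower in 4 of 4. *Asns* was lower in CD4+ cells of 2 samples and higher in 2.

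**Figure D5:**
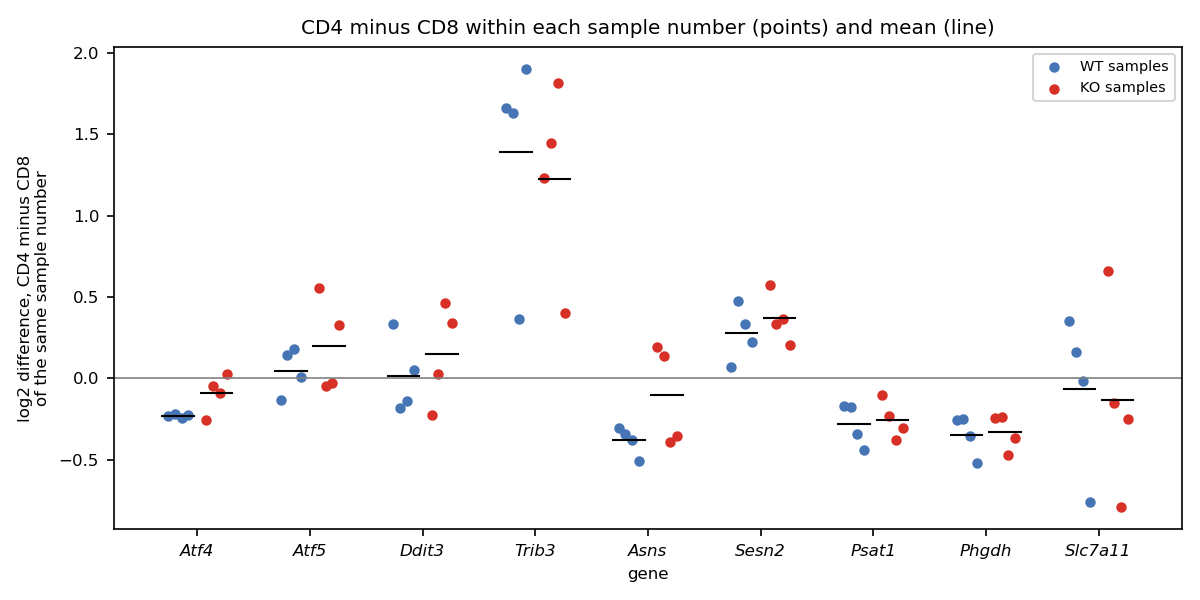
Log2 difference of CD4+ minus CD8+ cells with the same sample number for 9 genes, 4 WT (blue) and 4 KO (red) points each and a line at the mean. Trib3 and Sesn2 lie above 0 and Psat1 and Phgdh below 0 in all 8, while Atf4 is below 0 in all 4 WT points with hardly any spread and Asns lies on both sides of 0 in KO.

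DP cells, analysed here in KO samples, were compared with both KO lineages, and these comparisons share their DP libraries. Against KO CD8+ cells 0 of 10 genes were called, where 0.00823% of 12153 genes were, and 0 had an unadjusted p below 0.05. edgeR and DESeq2 called 0 as well. *Psat1* and *Phgdh* were higher in DP than in CD8+ cells in 4 of 4 samples, and with the replicate block the adjusted p of each was 0.405. Against KO CD4+ cells 0 of 10 were called by limma, edgeR and DESeq2, where 1.95% of 12175 genes were. *Phgdh* alone had an unadjusted p below 0.05 (log2 0.57, SE 0.21, adjusted p = 0.246). *Asns* (0.60, SE 0.47, adjusted p = 0.553) and *Psat1* (0.43, SE 0.23, adjusted p = 0.394) lay higher, and *Trib3* (-1.03, SE 0.50, adjusted p = 0.361) and *Sesn2* (-0.35, SE 0.22, adjusted p = 0.454) lower, in DP cells of 4 of 4 samples. *Phgdh* and *Atf4* were also higher in DP than in CD4+ cells in 4 of 4 samples. With the replicate block *Asns* was called (adjusted p = 0.0486), and so were 860 of all 12175 genes.

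Likeness across the 20 libraries is given as a description, since the libraries share samples, groups and depth. *Psat1* correlated with *Phgdh* at Pearson's r = 0.85 and with *Slc7a11* at 0.83, and *Asns* with *Chac1* at 0.75. *Atf4* and *Trib3* ran against each other at r = -0.72. With the group means taken out, these values were 0.92, 0.92, 0.84 and -0.46 in the same order. Among 10708 genes with a mean of at least 50, those most like *Atf4* were *Pnpt1* (r = 0.933), *Rabggtb* (0.930) and *Cars2* (0.924). For *Asns* they were *Tln2* (0.934), *Tbc1d19* (0.913) and *Tmem106c* (0.906), and for *Trib3* *Vrk1* (0.921), *Kremen1* (0.894) and *Acadvl* (0.886). *Ddit3* was most like *6330403K07Rik* (0.881), *Zfp677* (0.850) and *Zfp945* (0.849).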

How the data were processed

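RNA-Seq of 20 libraries was used, grouped by the genotype, subset and number in their deposited titles. Libraries were poly(A)-selected and kept the strand. The authors aligned their reads with STAR to mm10 (GRCm38) (version 2.7.2b in the submitters' processing notes), counted them on the exons of UCSC genes with strand taken into account, and normalized them with DESeq2. The deposited table holds this signal, normalized counts for 17101 genes, and dividing by each library's smallest step returned whole reads for 100% of the values. Depth was 37547651 to 46966318 reads per library. At 4 libraries per group the spread between libraries limits precision, and intervals cover that spread.

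The design was written for normalized values, so the 2-sided test of limma 3.58.1 (eBayes with trend; R 4.3.3) was fitted to log2 values with a pseudocount of 1. Genes whose mean over the compared libraries reached 10 were kept, and p values were adjusted by Benjamini-Hochberg over all genes tested. A 2-sided exact permutation test of 4 against 4 cannot go below 0.0286. The members and lists were chosen with earlier results of these data known. From each other list, up to 4 genes are named, those with the largest difference among genes called in KO against WT whose libraries did not overlap. Alternatives were edgeR 4.0.16 and DESeq2 1.42.0 on whole reads, quantile and 75th percentile scaling, a pseudocount of 10, a minimum mean of 50 or none, no trend, a joint fit of 20 libraries, a replicate block, and each library left out. For the lists these were chosen after seeing the data. Calculations were tested on simulated data, in which DESeq2 made more false calls than limma and edgeR. The simulation gave each gene the same spread in KO and WT, whereas KO libraries are more spread here.

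Whether equal numbers pair libraries was checked by correlating deviations from the group means across genes. Between equal numbers r was 0.448 to 0.531 for KO CD4+ and CD8+, 0.290 to 0.479 for KO CD4+ and DP, 0.368 to 0.566 for KO CD8+ and DP and 0.111 to 0.210 for WT CD4+ and CD8+ libraries, so numbers were taken to pair libraries within a genotype. Replicates of a group differed beyond sampling noise (lowest chi-square 10.6 per degree of freedom). Positions, exon lengths and promoter sequences are from RefSeq for GRCm38.p6, in which all 10 genes matched.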

Additional observations from a re-analysis of the deposited data

Results flagged for a closer look

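*Atf4* in KO CD8+ replicate 4, at 4214 normalized counts, stood apart from the other libraries of its group (4805 to 4882) by a gap of 0.886 of the group's range, above the limit of 0.829 for 4 samples. *Chac1* in WT CD4+ replicate 3, at 21.1 counts, stood above the others (7.8 to 9.19) with a gap of 0.895. Chance alone flags about 1 in 20 groups, and 2 of 50 groups were flagged here.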

How the results depend on the processing

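*Atf4* kept its lower level in KO in every alternative, and lost its call in both lineages only with the replicate block (log2 -0.27 and -0.43), for which KO and WT share the numbers 2 and 3 alone and whose equal numbers correlated at r = -0.00444 to 0.0978. The count of called genes in CD4+ cells, 2 as reported, was 1 without a filter, after 75th percentile scaling, without trend and in the joint fit, 0 with the block, and 1 to 2 with a library left out. *Trib3* was the call lost, and DESeq2 is among the settings that kept it. DESeq2 made the most false calls in simulated data, but those gave KO and WT the same spread and do not rank the tools for these libraries. In CD8+ cells the count of 1 became 2 with quantile normalization and DESeq2, 0 with the block, and 1 to 2 with a library left out, where *Trib3* (without KO replicate 3) or *Phgdh* (without KO replicate 1) was added. Between WT lineages 5 became 3 without trend and 0 in the joint fit, and *Atf4* was lost without WT CD8+ replicate 6. Within KO, the joint fit and the replicate block each called 1 gene for DP against CD4+ (*Phgdh* and *Asns*), and the block called 4 for CD4+ against CD8+. Uncalled differences that changed sign were *Chac1* in CD4+ (0.32) and *Slc7a11* in CD8+ cells (0.061) with quantile normalization, *Psat1* (0.11) and *Slc7a11* (0.49) in CD8+ cells with the block, and, with libraries left out, *Asns* (-0.65 to 0.031) and *Psat1* (-0.16 to 0.060) in CD4+ and *Psat1* (-0.22 to 0.084), *Slc7a11* (-0.35 to 0.22) and *Atf5* (-0.019 to 0.21) in CD8+ cells. *Dnmt3a*, *Ppp1r15a*, *Fos* and *Fosb* kept their calls in all alternatives run. *Atf3* was lost in CD4+ cells in 5 of 9 and *Stc2* in 5 of 9 alternatives, and counts for ATF6 and XBP1 genes ranged from 0 to 10 and for p53 targets from 0 to 5. Calls over all genes changed by over 1.5 times from 2274 to 1403 without trend, 1304 in the joint fit and 26 with the block in CD4+ cells, and from 3118 to 2017 and 89 in the last 2 in CD8+ cells. With a library left out they were 628 to 2963 in CD4+ cells, lowest without WT replicate 6, and 1633 to 4092 in CD8+ cells, with any WT library left out giving at most 1106 and 1753. DESeq2 gave 728 and not 237 for DP against CD4+, 956 and not 514 for KO CD4+ against CD8+, and 21 and not 2 for the interaction, and the joint fit gave 1610 and not 5592 between WT lineages. The joint fit and the block gave 1459 and 860 for DP against CD4+ and 885 and 2305 for KO CD4+ against CD8+, for which no trend gave 124 and 299, and the block gave 173 for the interaction. *Chac1*, *Atf3* and *Stc2* are limited by low counts.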
